A study of Homo sapiens with 8 samples.

Results

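The genes described here are 10 enzymes of glycolysis, HK2, GPI, ALDOA, TPI1, GAPDH, PGK1, PGAM1, ENO1, PKM and LDHA, which were chosen by name, by a rule that uses no measured value. Earlier results of these data were known, however, when the enzymes and the gene lists set beside them were chosen. All 10 were found among the 56303 genes of the count table, and all 10 passed the filter on low counts in every comparison. They were measured by methylated RNA immunoprecipitation sequencing (MeRIP-seq) in SK-N-BE(2), a long-established line of human neuroblastoma cells. Polyadenylated RNA was fragmented, part of the fragments was kept as input, and the remainder was captured with an antibody against N6-methyladenosine (m6A) to give the IP library. IP over input, the level of a gene in the IP library divided by its level in the input, tells how efficiently its transcripts were captured relative to the average gene.

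The cells carried a control shRNA (shNC) or an shRNA against METTL14 (shMETTL14). METTL14 is the partner of METTL3 in the complex that writes m6A on messenger RNA. Each arm had 2 samples, and each sample gave 1 input and 1 IP library, 8 libraries in all. No further treatment, time point or clone was given in the labels. The shRNAs were carried by vectors, and the methods list 2 against METTL14. The labels do not say which of them was used in these libraries or whether the samples of an arm were separate cultures, so the p-values measure only the spread between these samples, which may be technical. The RNA came from whole cultures, in which fewer cells of a type and less RNA per cell cannot be told apart.

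Glycolysis turns glucose into pyruvate in the cytosol. Hexokinase phosphorylates glucose, glucose-6-phosphate isomerase, phosphofructokinase and aldolase carry the sugar to the point where it is split, and triosephosphate isomerase feeds both products into glyceraldehyde-3-phosphate dehydrogenase. Phosphoglycerate kinase and pyruvate kinase make ATP, phosphoglycerate mutase and enolase lie between them, and lactate dehydrogenase turns pyruvate into lactate and restores NAD+. Tumour cells often run the pathway at a high rate even when oxygen is present. Many of its genes are known targets of hypoxia-inducible factors and of the MYC family, whose member MYCN is amplified in this cell line.

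The libraries held 32027379 to 47205265 counts. METTL14 RNA was measured first, as the check of the labels. Its input level was 49.5 and 48.8 CPM (counts per library size, scaled by TMM) in shNC and 13.7 and 14.6 CPM in shMETTL14, a log2 change of -1.79 (SE 0.0663, adjusted p = 1.28e-15, edgeR quasi-likelihood test with Benjamini-Hochberg adjustment). Both shMETTL14 inputs lay below both shNC inputs. Of the adrenergic neuroblastoma markers, MYCN was at 1667 and HAND2 at 276 CPM per kb of exon in shNC input. The summed level of the 8 adrenergic markers ranged from 5557 to 5790 CPM in the shNC inputs and from 5745 to 5831 CPM in the shMETTL14 inputs. That of 6 mesenchymal markers ranged from 2174 to 2243 CPM in shNC and from 1808 to 1813 CPM in shMETTL14. These sums mainly follow their most abundant genes. Per kb in shNC input, MYCN lay at percentile 99.9 of all genes and the mesenchymal marker VIM at 99.6. Of the 8 adrenergic markers 5 rose and 0 fell at an adjusted p under 0.05, and of the 6 mesenchymal markers 2 rose and 3 fell. Among all genes tested in input, 11.7% were higher and 12.3% lower by this rule. The blood marker CD3E was at 0 counts in both shNC inputs. Another blood marker, CD68, lay at percentile 74.4 of all genes per kb in shNC input, and the blood markers summed to 16.6 to 20.2 CPM there. The part of these marker differences in the results below was not tested.

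The enzymes were among the abundant transcripts of these cells. Per kilobase of exon, 8 of the 10 lay at percentile 91.4 or higher among the 22953 genes tested, whose median in shNC input was 2.65 CPM per kb. GAPDH, the oxidoreductase that makes the NADH of the pathway, had the highest level, at 494 ± 3.2 CPM per kb (mean ± SD, n = 2), at percentile 99.8 of all genes. ENO1 (enolase 1) followed at 343 ± 3.3, TPI1 (triosephosphate isomerase) at 172 ± 4.0, PKM (pyruvate kinase of muscle and tumours) at 116 ± 2.3 and ALDOA (aldolase A) at 63.9 ± 2.7 CPM per kb. PGAM1 (phosphoglycerate mutase 1) was at 44.2 ± 0.32, PGK1 (phosphoglycerate kinase 1) at 39.0 ± 1.2 and HK2 (hexokinase 2) at 24.4 ± 0.75 CPM per kb. The lowest levels were those of GPI (glucose-6-phosphate isomerase), at 13.4 ± 0.27, and LDHA (lactate dehydrogenase A), at 5.31 ± 0.015 CPM per kb, at percentiles 84.1 and 65.3. The length used is that of all annotated exons merged, from 2568 bases in PGAM1 to 9112 in GPI, so this order depends on the gene models. The input levels of neighbours in this order did not overlap in shNC, and the order was the same in shMETTL14 except that PGK1, at 43.0 ± 0.44, and PGAM1, at 42.4 ± 1.0 CPM per kb, changed places with overlapping samples.

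**Figure D1:**
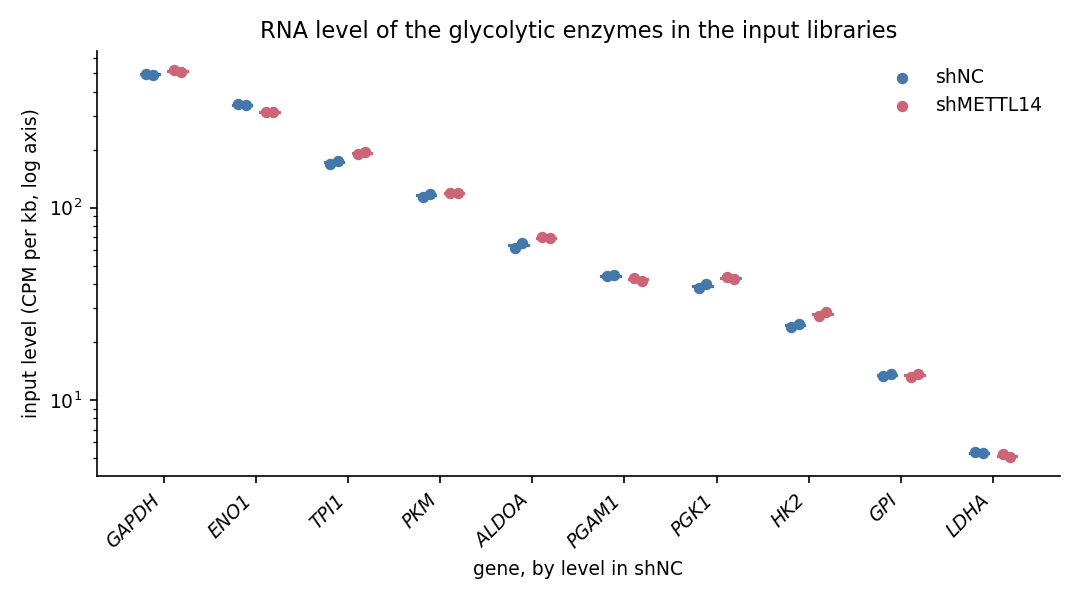
Input level of the 10 enzymes in CPM per kb of exon on a log axis, with 1 point per input library, a short line at each mean, and the shNC samples to the left of the shMETTL14 samples. Levels span from 5.31 CPM per kb for LDHA to 494 CPM per kb for GAPDH in shNC, and the arms differ little on this scale.

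Together the 10 genes took 0.551% ± 0.0080 of all counts in the shNC inputs and 0.567% ± 0.0031 in the shMETTL14 inputs. In the IP libraries their share was 0.298% ± 0.0093 in shNC and 0.318% ± 0.0018 in shMETTL14. All 4 IP libraries lay below all 4 input libraries. GAPDH alone made up 27.5% to 28.6% of the enzymes' counts in the inputs and 18.0% to 20.0% in the IPs.

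The first comparison asks whether the RNA level of the enzymes differed between shMETTL14 and shNC cells, in the input libraries. HK2, TPI1, PGK1 and ALDOA rose, by 10.0% to 15.5%, and ENO1 fell by 8.11%, while GPI, GAPDH, PGAM1, PKM and LDHA did not pass the test. With 5 of 10 called (4 higher and 1 lower), against 24.0% of all 22245 genes tested (11.7% higher and 12.3% lower), the shares over so few genes are a description. The median log2 change of the enzymes was 0.06, beside 0.00 for all genes. The calls depended on single samples. Without shMETTL14 replicate 2 the numbers called were 0 higher and 0 lower, and without shMETTL14 replicate 1 the number higher was 2, at which settings the share of all genes called also dropped, to 6.81% and 12.4%. These fits leave 1 shMETTL14 sample, which is assumed to vary like the shNC samples. The calls of HK2, TPI1 and ENO1 were lost without shMETTL14 replicate 2, that of PGK1 without either shMETTL14 sample, and that of ALDOA without either shMETTL14 sample and also without shNC replicate 1.

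HK2, at chr2:74833981-74893359 (GRCh38, plus strand), binds the outer mitochondrial membrane and commits glucose to the cell. Its input level was 145 and 151 CPM in shNC and 166 and 174 CPM in shMETTL14. The arms did not overlap, and the log2 change was 0.21 (SE 0.0394, adjusted p = 0.000296, edgeR quasi-likelihood test with Benjamini-Hochberg adjustment), the largest rise among the 10. TPI1, at chr12:6867119-6870948 on the plus strand, was at 458 and 473 CPM in shNC and at 512 and 523 CPM in shMETTL14. Its log2 change was 0.16 (SE 0.0320, edgeR adjusted p = 0.000531), again without overlap.

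PGK1, at chrX:78065188-78129296 on the plus strand, makes the first ATP of the pathway. It was measured at 207 and 216 CPM in shNC and at 235 and 231 CPM in shMETTL14, a log2 change of 0.15 (SE 0.0359, edgeR adjusted p = 0.00326). ALDOA, at chr16:30053090-30070457 on the plus strand, splits fructose-1,6-bisphosphate. Its level was 381 and 405 CPM in shNC and 433 and 428 CPM in shMETTL14, a log2 change of 0.14 (SE 0.0342, edgeR adjusted p = 0.00393). For both genes each shMETTL14 sample lay above each shNC sample.

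ENO1, at chr1:8861002-8879249 on the minus strand, was the member that fell. It was at 1368 and 1350.01 CPM in shNC and at 1246 and 1240.1 CPM in shMETTL14, a log2 change of -0.12 (SE 0.0280, edgeR adjusted p = 0.00200). The samples of the arms did not overlap. The call was lost when scaling factors came from the least captured genes (the lowest 25% by IP over input), under which the median of all input changes was 0.04.

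GAPDH, at chr12:6533927-6538374 on the plus strand, is often used as a reference gene. It was measured at 1478 and 1465 CPM in shNC and at 1550.2 and 1515 CPM in shMETTL14. The log2 difference of 0.07 (SE 0.0280) did not pass the test (edgeR adjusted p = 0.0987), although the samples did not overlap. PKM, at chr15:72199029-72231822 on the minus strand, was at 978 and 1006 CPM in shNC and at 1019 and 1022 CPM in shMETTL14, with a log2 difference of 0.05 (SE 0.0291, edgeR adjusted p = 0.268). The count table does not separate the alternative exons that give the M1 and M2 forms of this enzyme.

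GPI, PGAM1 and LDHA did not pass the test either. GPI, at chr19:34359480-34402156 on the plus strand, was the member whose input samples overlapped, at 121 and 124 CPM in shNC against 120.2 and 125 CPM in shMETTL14, a log2 difference of 0.01 (SE 0.0402, edgeR adjusted p = 0.925). PGAM1, at chr10:97426160-97433441 on the plus strand, was at 113 and 114 CPM in shNC and at 111 and 107 CPM in shMETTL14, a log2 difference of -0.05 (SE 0.0407, edgeR adjusted p = 0.392). LDHA, at chr11:18394388-18408425 on the plus strand, was at 33.0 and 32.9 CPM in shNC and at 32.3 and 31.4 CPM in shMETTL14, a log2 difference of -0.05 (SE 0.0611, edgeR adjusted p = 0.671). LDHA had 707 to 1368 counts per library, the fewest of the 10, and the widest SE.

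**Figure D2:**
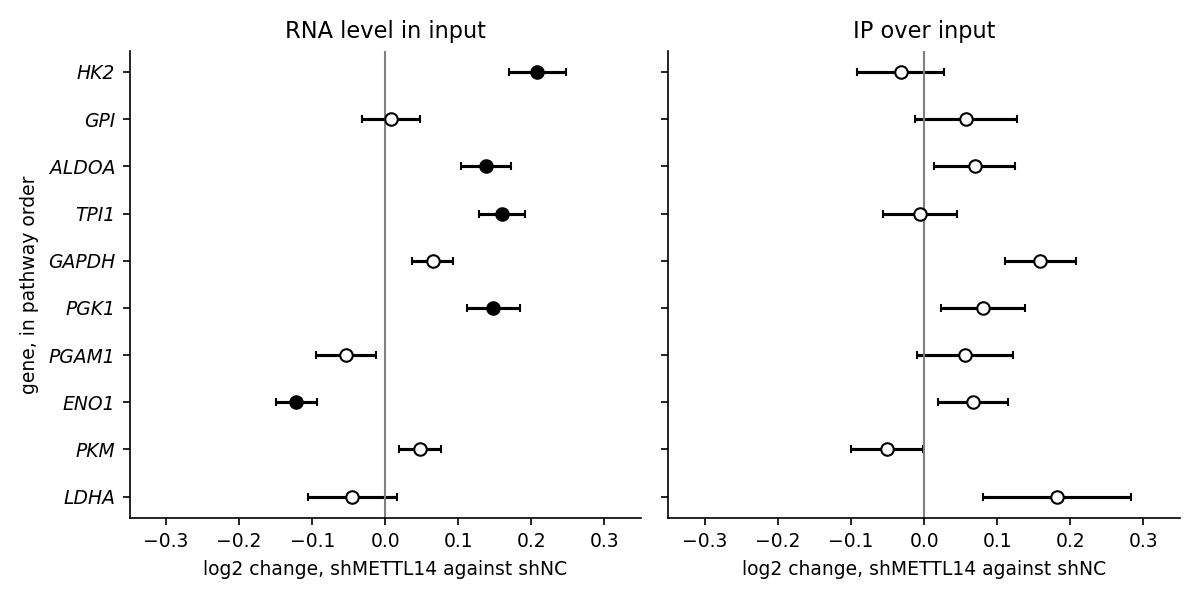
Log2 change of each enzyme in shMETTL14 against shNC, with its SE, for the RNA level in input (left) and for IP over input (right), genes in pathway order. Filled circles mark an adjusted p under 0.05, which HK2, ALDOA, TPI1, PGK1 and ENO1 reach in input and no enzyme reaches in IP over input.

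The second comparison asks how strongly the transcripts of the enzymes were captured by the m6A antibody. Relative to the average gene, 9 of the 10 were lower in IP than in input, in shNC and in shMETTL14 alike, and TPI1 did not differ in either arm. Of all 22953 genes tested, 29.8% were lower in shNC and 29.1% in shMETTL14 by the same rule (edgeR adjusted p under 0.05). The number of enzymes higher in IP was 0 in both arms (0 also by DESeq2), against 29.1% and 28.9% of all genes, and 0 at an unadjusted p under 0.05, against 30.7% and 30.6%. The median log2 IP over input of the enzymes was -0.67 in shNC and -0.58 in shMETTL14, beside -0.01 for all genes in both arms. These values are relative: with factors from those least captured genes, the median of all genes moved to 0.89 in shNC and 0.84 in shMETTL14. Then 6 enzymes were called higher and 3 lower in each arm. Of all 22953 genes, 16287 were then called higher and 1093 lower in shNC, and 15936 and 1128 in shMETTL14. The enzymes' median remained 0.65 below that of all genes in shNC and 0.57 below in shMETTL14 under that scaling, and 9 of 10 remained below it.

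The sugar-splitting enzyme and the dehydrogenase were captured least. The IP over input ratio of ALDOA was 0.402 and 0.362 in the shNC samples and 0.397 and 0.404 in the shMETTL14 samples, with log2 values of -1.39 (SE 0.0395) and -1.32 (SE 0.0393). That of GAPDH was 0.385 and 0.387 in shNC and 0.425 and 0.437 in shMETTL14, with log2 values of -1.37 (SE 0.0345) and -1.21 (SE 0.0344). Both genes lay near the low end of all genes by this measure, at percentiles 6.05 and 6.19 in shNC. GPI had ratios of 0.457 and 0.397 in shNC and of 0.446 and 0.445 in shMETTL14, with log2 values of -1.22 (SE 0.0491) and -1.17 (SE 0.0492).

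PGK1 and ENO1 were intermediate. The ratio of PGK1 was 0.583 and 0.526 in shNC and 0.587 and 0.586 in shMETTL14, and that of ENO1 0.590 and 0.586 in shNC and 0.624 and 0.608 in shMETTL14. LDHA was at 0.633 and 0.722 in shNC and at 0.711 and 0.817 in shMETTL14, with the largest spread between samples of an arm.

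In shNC, PKM, PGAM1 and HK2 lay nearer to the average gene, within the middle part of all genes. In shMETTL14 LDHA lay there as well, at percentile 29.5, above PKM at 26.2. The lower and upper quartiles of all genes in shNC were 0.705 and 1.37. PKM was at 0.759 and 0.745 in shNC and at 0.711 and 0.740 in shMETTL14, PGAM1 at 0.788 and 0.714 in shNC and at 0.789 and 0.776 in shMETTL14, and HK2 at 0.881 and 0.800 in shNC and at 0.850 and 0.796 in shMETTL14. TPI1 stood apart from the others, with ratios of 1.03 and 0.991 in shNC and of 1.02 and 0.995 in shMETTL14 (log2 values of 0.01 and 0.01, edgeR adjusted p = 0.791 and 0.881). The sign of the TPI1 value was not stable: it turned to -0.12 in shNC and -0.11 in shMETTL14 with library sizes as the only scaling, and to -0.02 in both arms with its pseudogene rows added.

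The ratio was set against level and gene structure across all genes. The 2296 genes with the highest levels, which included 8 of the enzymes, had a median log2 IP over input of 0.01 in shNC, and 43.7% of them were called lower. Across all 22953 genes, which are not independent replicates, Spearman's rho of log2 IP over input in shNC was -0.07 with the level, 0.18 with the length of the longest exon, 0.12 with the exonic length and 0.02 with the number of exons. The longest exons of the enzymes ranged from 846 bases in ENO1 to 4874 bases in GPI, beside a median of 1510 bases over all genes. TPI1, the enzyme nearest the average in IP over input, had a longest exon of 888 bases, and GPI, among the lowest, had the longest one.

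**Figure D3:**
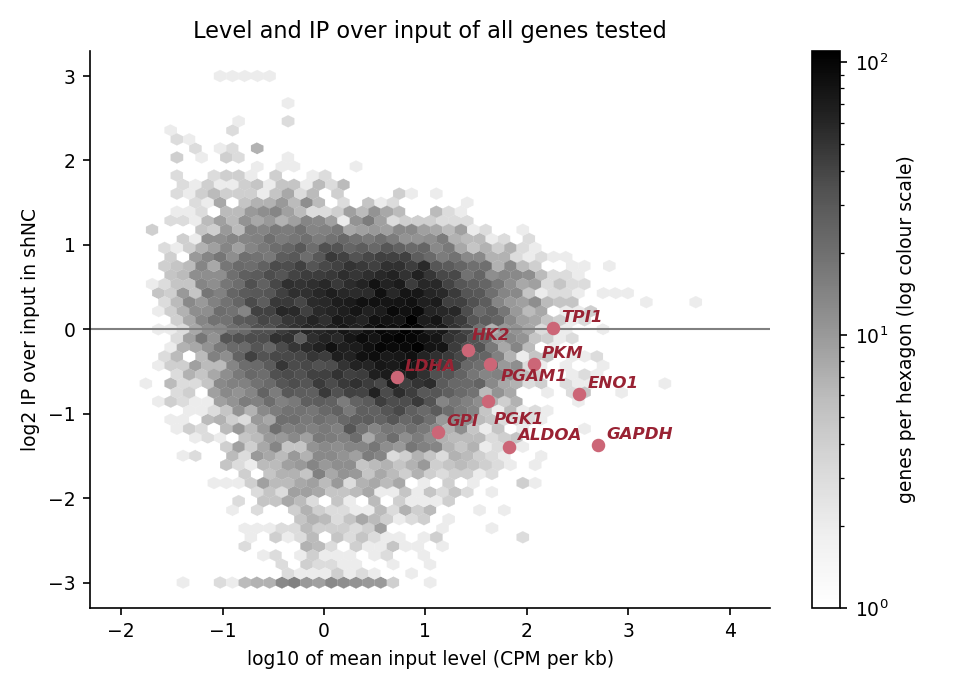
Log2 IP over input in shNC against the log10 of the mean input level in CPM per kb for all 22953 genes tested, as hexagons shaded by the number of genes, with the 10 enzymes as red points. Values past 3 on either side are drawn at 3, and with TMM scaling all enzymes except TPI1 lie below 0 while most lie at the right of the cloud.

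The third comparison asks whether IP over input of the enzymes changed with METTL14 knockdown. None of the 10 was called by the edgeR quasi-likelihood test after Benjamini-Hochberg adjustment (0 higher and 0 lower, against 0.00436% of all genes, which is 1 gene), and DESeq2 also called 0. At an unadjusted p under 0.05 the count was 1 of 10, higher in shMETTL14, beside 6.34% of all genes in either direction and 3.03% higher. The median log2 change of the enzymes was 0.06, beside 0.00 for all genes, and 7 of 10 values were above 0. The median of the enzymes turned to -0.0086 without shNC replicate 2 and was 0.089 without shNC replicate 1. That 1 gene was GAPDH, with a log2 change of 0.16 (SE 0.0480, unadjusted p = 0.00172, adjusted p = 0.562, edgeR), both shMETTL14 ratios lying above both shNC ratios. The value for GAPDH ranged from 0.14 to 0.18 over the fits that left out 1 sample.

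LDHA had the largest value, 0.18 (SE 0.101, edgeR adjusted p = 0.807), with samples that overlapped between the arms. It ran from 0.065 without shNC replicate 1 to 0.28 without shMETTL14 replicate 1. The ratios of PGK1 and ENO1 also lay higher in both shMETTL14 samples, by 0.08 (SE 0.0578) and 0.07 (SE 0.0483) on the log2 scale, and those of PKM lay lower in both, by -0.05 (SE 0.0492), with edgeR adjusted p = 0.867, 0.867 and 0.914. Over the fits without 1 sample these values ran from 0.0083 (without shNC replicate 2) to 0.14 for PGK1, from 0.046 to 0.085 for ENO1 and from -0.081 to -0.026 for PKM. HK2, GPI, ALDOA, TPI1 and PGAM1 had overlapping ratios and values from -0.03 to 0.07. When the IP libraries were compared alone, so that RNA changes stayed in the values, 5 enzymes were higher (HK2, ALDOA, TPI1, GAPDH and PGK1) against 10.4% of all genes higher (12.6% were lower).

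Several steps have more than 1 isozyme, and these were compared with the members per length of exon. At the aldolase step, ALDOA exceeded ALDOC, the brain form, by 14.2 ± 0.20-fold in shNC input and 19.7 ± 1.1-fold in shMETTL14 input. ALDOC was at 12.6 and 13.7 CPM in shNC and at 10.1 and 10.8 CPM in shMETTL14, and fell by 0.33 on the log2 scale (SE 0.0971, edgeR adjusted p = 0.0149). This call was lost without shNC replicate 2 and without either shMETTL14 sample.

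The enolases moved in opposite directions. ENO2, the neuron-specific enolase that serves as a serum marker of neuroblastoma, was at 85.5 and 84.9 CPM in shNC input and at 124 and 122 CPM in shMETTL14 input. It rose by a log2 value of 0.53 (SE 0.0411, edgeR quasi-likelihood test with Benjamini-Hochberg adjustment), the largest change of any enolase, while ENO1 fell. ENO1 exceeded ENO2 per length by 17.3 ± 0.087-fold in shNC and by 11.0 ± 0.11-fold in shMETTL14. The log2 IP over input of ENO2 was -0.74 in shNC, beside -0.77 for ENO1.

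At the lactate step the member was the minor form. LDHB, whose subunit favours the conversion of lactate to pyruvate, was at 687 and 688 CPM in shNC input and at 651 and 657 CPM in shMETTL14 input (log2 difference -0.07, SE 0.0298, edgeR adjusted p = 0.119). Per length it exceeded LDHA by 43.4 ± 0.20-fold in shNC and by 42.8 ± 1.2-fold in shMETTL14. The merged exons are 2983 bases long for LDHB and 6210 for LDHA, so part of this fold comes from the gene models. HK2 was likewise the lower of the hexokinases, at 0.320 ± 0.0089 of HK1 per length in shNC and 0.364 ± 0.0080 in shMETTL14, with HK1 at a log2 difference of 0.02 (SE 0.0313, edgeR adjusted p = 0.712).

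Phosphofructokinase, the regulated step that the 10 members leave out, was carried mainly by PFKP, the platelet form, at 48.3 CPM per kb in shNC input, then by PFKM, the muscle form, at 26.6 and PFKL, the liver form, at 5.39 CPM per kb. PFKP fell by 0.11 on the log2 scale (SE 0.0366, edgeR adjusted p = 0.0254) and PFKM rose by 0.12 (SE 0.0368, edgeR adjusted p = 0.0163). Both calls were lost without either shMETTL14 sample, that of PFKP also without shNC replicate 2 and that of PFKM also without shNC replicate 1. Their ratio per length went from 1.81 ± 0.022 to 1.54 ± 0.037. Of 16 isozymes tested in all, 3 rose and 2 fell, against 11.7% and 12.3% of all genes. PGAM2, the muscle mutase, had the highest log2 change, 0.64 (SE 0.171, edgeR adjusted p = 0.00756), with 94 to 185 counts per input library. Its call was lost without either shMETTL14 sample. The lowest value was that of HKDC1, -0.57 (SE 0.631), which did not pass the test. Low IP over input was not particular to the members. By that measure in shNC, these isozymes lay at percentile 44.5 (ADPGK) or lower, down to 7.88 for PFKL. The exceptions were BPGM at percentile 76.1 and GAPDHS at 84.6.

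**Figure D4:**
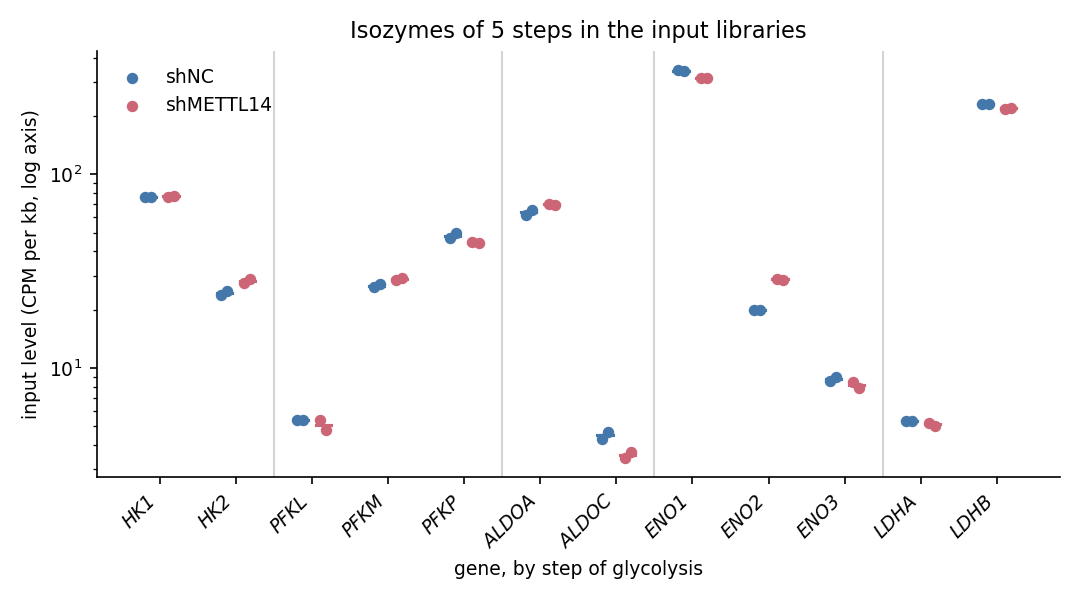
Input level in CPM per kb of exon, on a log axis, of the isozymes at 5 steps of glycolysis, with 1 point per input library and a short line at each mean, steps separated by grey lines. ENO2 is higher and ENO1 lower in shMETTL14, and LDHB is far above LDHA in both arms.

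Reads can be shared between an enzyme and another row of the table. The row RP5-940J5.9 lies on the opposite strand with all 422 of its exonic bases inside GAPDH exons and held 44.5% to 50.8% as many counts as GAPDH, and RP11-618P17.4, which shares 542 exonic bases with GPI on the same strand, held 25.6% to 31.1% as many as GPI. The pseudogenes of LDHA held 4.13% to 14.9% as many counts as LDHA, LDHAP4 the most, those of TPI1 3.99% to 6.77%, mostly TPI1P1, and HK2P1 2.66% to 3.50% as many as HK2. GAPDH had 61 pseudogene rows, with 2.26% as many counts as GAPDH over all libraries. How the counting treated reads that fit several places is not given in the sources used here, so the levels of these genes are uncertain. PGAM4, a copy of PGAM1 with a single exon and a gene name of its own, held 6.17% to 12.6% as many counts as PGAM1, whose level is uncertain in the same way. With the pseudogene rows added to their parents, 4 enzymes were higher and 1 was lower in input, as before. The antisense row RP11-259N19.1 beside HK2 and SPSB2 beside TPI1 share 7 and 14 exonic bases with them. They held 2.67% to 16.6% as many counts as HK2 and 0.755% to 1.39% as many as TPI1. RP11-259N19.1 had 966 and 600 counts in the shNC IPs and 390 and 363 in the shNC inputs. CTD-2515O10.5 lies inside ALDOA with 3.12% to 5.29% as many counts, and the pseudogenes of ALDOA, PGK1, PGAM1 and PKM came to under 1% each.

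Promoter sequence is shown because hypoxia-inducible factors and MYC proteins are known to bind short motifs at promoters of glycolytic genes. RefSeq windows of GRCh38.p14, from 250 bases before to 50 bases after 1 start site of each gene, were given for all 10. The window lay at the first start that RefSeq gives for HK2, ALDOA, PGK1, ENO1 and LDHA and at a later start for the other 5, and in the count table's gene models ALDOA and PGK1 begin well upstream of their windows. The letters ACGTG, the core of the hypoxia response element, were searched on both strands and found in 6 of the 10 windows, against 21.4% of 35116 promoter windows. HK2, ALDOA and PGK1, which rose in input, held them, as did GPI, GAPDH and LDHA, which did not pass the test. TPI1, which rose, ENO1, which fell, and PGAM1 and PKM held none. The letters CACGTG, an E-box that contains ACGTG on both strands, were found in 2 of the 10, GAPDH and LDHA, against 7.26% of the windows. A match is a description of letters and not a bound site. The stretches below are 1 from each of the 6 windows with a match, 5′ to 3′ on the strand of the gene, with the E-box, or else ACGTG or its reverse complement, in capitals. They lie at chr2:74834069-74834093, chr19:34364820-34364844, chr16:30064091-30064115, chr12:6535173-6535198, chrX:78104055-78104079 and chr11:18394466-18394491.
HK2: tgggcgtgcgCACGTcactgatccg
GPI: actgcctgtaACGTGgaaggtgttc
ALDOA: ttcccctccaCACGTcaacgattct
GAPDH: tctgcggggtCACGTGtcgcagagga
PGK1: acggaagccgCACGTctcactagta
LDHA: gcccgactcaCACGTGggttcccgca

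Hypoxia-inducible factors, the proteins that control them and their targets outside glycolysis were listed together beside the enzymes. Of these 21 genes, 11 rose and 1 fell in shMETTL14 input, against 11.7% and 12.3% of all genes, with a median log2 change of 0.20, beside 0.00 for all genes. CA9, a carbonic anhydrase at the cell surface, had the highest value, 1.55 (SE 0.417, edgeR adjusted p = 0.00736), on 8 and 24 counts in shNC and 44 and 66 in shMETTL14. Its value was 0.98 without shNC replicate 1 (edgeR adjusted p = 0.132), 2.54 without shNC replicate 2 and 1.22 without shMETTL14 replicate 2 (edgeR adjusted p = 0.289). NDRG1 rose by a log2 value of 0.66 (SE 0.0577), DDIT4, an inhibitor of mTORC1 signalling, by 0.42 (SE 0.0465) and VEGFA, the angiogenic growth factor, by 0.41 (SE 0.0346), while P4HA1, a collagen prolyl hydroxylase, fell by 0.19 (SE 0.0624), a call lost without shNC replicate 2 and without either shMETTL14 sample. The transcripts of the factors themselves, HIF1A and EPAS1, had log2 differences of -0.04 (SE 0.0330) and 0.17 (SE 0.140) and did not pass the test.

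The regulators of glycolytic flux had a median of 0.28 on the log2 scale, beside 0.00 for all genes. Of these 10 genes 4 were higher and 1 lower in input, against 11.7% and 12.3% of all genes. PFKFB4 and PFKFB3, which make the activator of phosphofructokinase, rose by log2 values of 0.97 (SE 0.133) and 0.30 (SE 0.0353), from 3.80 and 4.27 CPM to 7.88 and 7.87 CPM and from 184 and 185 CPM to 228 and 224 CPM. TIGAR, which lowers the same activator, rose by 0.45 (SE 0.102), and PDP1, a phosphatase that activates pyruvate dehydrogenase, by 0.35 (SE 0.0799). PDP2, of the same family, fell by 0.26 (SE 0.0738). The calls of PDP1 and PDP2 were lost without either shMETTL14 sample, that of PDP2 also without shNC replicate 1, and that of TIGAR without shMETTL14 replicate 2. The kinases PDK1, PDK2 and PDK3, which inhibit pyruvate dehydrogenase, had values of 0.08, 0.10 and 0.25 and did not pass the test.

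Of 11 transporters of glucose and lactate, 3 rose and 2 fell, against 11.7% and 12.3% of all genes, with a median of 0.03. SLC2A1 (GLUT1), the basal glucose transporter, was at 45.3 and 46.2 CPM in shNC and at 56.6 and 55.0 CPM in shMETTL14, a log2 change of 0.29 (SE 0.0515, edgeR adjusted p = 0.000123). SLC16A3 (MCT4), the lactate exporter, rose by 0.58 (SE 0.112) and BSG, the chaperone of the lactate transporters, by 0.12 (SE 0.0359). SLC2A3 (GLUT3) fell by 0.33 (SE 0.0586) and SLC16A7 (MCT2) by 0.45 (SE 0.109). The calls of SLC2A3 and SLC16A7 were lost without shMETTL14 replicate 2, and that of BSG without either shMETTL14 sample and without shNC replicate 1. The highest and lowest values, 1.35 (SE 0.572) for SLC16A8 and -0.47 (SE 0.267) for SLC2A10, did not pass the test. SLC16A1 (MCT1) had a log2 difference of -0.02 in input and, unlike the enzymes, a log2 IP over input of 1.02 (SE 0.0409) in shNC. By that measure SLC2A1 lay at percentile 63.5 of all genes in shNC and BSG, low like many of the enzymes, at 7.10.

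The pathways that branch from or follow glycolysis were listed as well. Of 8 genes of the pentose phosphate pathway 0 rose and 2 fell, with TKT (transketolase) lower by 0.32 on the log2 scale (SE 0.0361), and the highest value was 0.13 (SE 0.0726) for RPIA. At an unadjusted p under 0.05, 0 of the 8 were higher and 5 lower, beside 16.7% and 17.3% of all genes. Of 24 genes of pyruvate dehydrogenase and the citric acid cycle 0 rose and 6 fell (0 higher at an unadjusted p under 0.05 as well), against 11.7% of all genes higher and 12.3% lower, led by SUCLG2, a subunit of succinyl-CoA synthetase, by 1.10 on the log2 scale (SE 0.0820) and DLD, the shared dihydrolipoamide dehydrogenase, by 0.62 (SE 0.0420), with the highest value, 0.09, for IDH3G. Of 5 genes of gluconeogenesis PCK2 rose by 0.14 (SE 0.0512), PC (pyruvate carboxylase) fell by 0.19 (SE 0.0501), and FBP1 had the lowest value, -0.33 (SE 0.131), without passing the test. The call of PCK2 was lost whichever sample was left out (edgeR adjusted p up to 0.309), and that of PC without shMETTL14 replicate 2.

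Of 10 MYC family genes tested, 3 rose and 0 fell, against 11.7% and 12.3% of all genes. At an unadjusted p under 0.05, 0 fell too, against 17.3% of all genes. Those that rose were MXD4 by 0.47 (SE 0.0453), MNT by 0.34 (SE 0.0535) and MLXIP by 0.13 (SE 0.0418). MXD4 and MNT are repressors that share partners with MYC. The call of MLXIP was lost without either shMETTL14 sample and without shNC replicate 1. MYCN had a log2 difference of -0.01 (SE 0.0274), and MYC, with the highest value, 0.70 (SE 0.295), did not pass the test (edgeR adjusted p = 0.0897). The MYC value was 0.30 without shNC replicate 1 and 1.26 without shNC replicate 2, where it passed (edgeR adjusted p = 0.00695). Over all 105 other listed genes tested, 25 rose and 15 fell in input, against 11.7% and 12.3% of all genes. Both numbers were lower when either shMETTL14 sample was left out, and so was the share of all genes called. In the change of IP over input 0 of them were called in either direction by edgeR, and DESeq2 also called 0.

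Over the 8 libraries the genes whose log2 CPM ran most like the mean of the 10 enzymes were SGTA, PPT2-EGFL8 and CTSB, with Pearson's r of 0.9995, 0.9994 and 0.9994 among 16432 genes. The libraries fall into IP and input, so this is a description of the IP over input difference and of shared scaling, and no p is given. Of the enzymes, ALDOA (r = 0.9997) and GAPDH (0.9991) ran closest to that mean and TPI1 (0.050) least.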

How the data were processed

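MeRIP-seq counts of 8 libraries from SK-N-BE(2) cells were used, with groups taken from the sample titles. The authors deposited raw counts per gene, without normalization, beside exon coordinates and gene lengths. GRCh38 and Trimmomatic 0.36 are named in the submitters' processing notes. Which aligner and counter were used, and how strand and molecular identifiers were handled, is not given in the sources used here. Duplicates that were kept would make counts dependent, and reads of overlapping genes may have been counted for both. No column was left unmapped.

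Counts were tested in R 4.3.3 with edgeR 4.0.16 (filterByExpr, TMM, glmQLFit, glmQLFTest, Benjamini-Hochberg adjustment, threshold 0.05). The input comparison used the 4 inputs (22245 genes). IP over input and its change used 1 model of 8 libraries (22953 genes). SE is the absolute log2 value divided by the square root of F. CPM values are counts over the TMM-scaled library sizes, and a ratio of IP to input is the ratio of a sample's CPM. TMM sets the average gene to about 1, so a global shift in m6A is not seen. Likeness was computed on log2 of CPM plus 0.5, over genes with a mean of at least 50 counts.

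The 2 samples per arm limit the precision, and counting error adds most to genes with few counts. An exact permutation test of 2 against 2 samples cannot go below p = 0.333, two-sided. Replicate libraries differed by more than sampling noise (chi-square per gene of 2.40 to 3.85). IP and input of a sample are paired by the protocol, and the correlation of their deviations was -0.0079 (shNC) and -0.0062 (shMETTL14).

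The members and lists were chosen with earlier results of these data known. The genes named are the members, METTL14, their isozymes, chosen transporters and regulators, called genes of each list, the highest and lowest tested gene of each list, rows with at least 1% of a member's counts and the 3 most alike genes. Some listed genes are counted but not reported here by name. Other settings tried were a minimum of 10 counts per library, a minimum of 1 read in place of the filter, RLE factors, no factors, factors from the least captured genes (the lowest 25% by IP over input), DESeq2 1.42.0, a replicate block, all libraries in 1 model, the IP libraries alone, pseudogene counts added to their parents, and leaving out each sample. The fits were tested on simulated data. Figures were drawn with matplotlib 3.10.9.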

Additional observations from a re-analysis of the deposited data

How the results depend on the processing

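In input, the enzymes called higher numbered 2 without a filter, against 4, and those called lower 0 with factors from the least captured genes, against 1. The other genes numbered 16 higher and 4 lower without a filter, against 25 and 15. Without a filter the share of all genes called in either direction also dropped, to 5.76% of 37399, against 24.0% of 22245. With factors from the least captured genes 2097 of all 22245 genes were lower, against 2732. Leaving out each sample gave 0 to 4 enzymes higher and 0 to 1 lower, and 11 to 24 other genes higher and 3 to 11 lower. With factors from the least captured genes, 6 enzymes were higher and 3 lower in IP over input in each arm. Of all 22953 genes, 16287 were then higher and 1093 lower in shNC, and 15936 and 1128 in shMETTL14. There, log2 IP over input in shNC and shMETTL14 became 0.66 and 0.57 for HK2, 0.058 and 0.080 for PGK1, 0.50 and 0.50 for PGAM1, 0.14 and 0.15 for ENO1, 0.50 and 0.39 for PKM, 0.34 and 0.46 for LDHA, 0.55 and 0.46 for LDHB, 0.17 and 0.14 for ENO2, 0.57 and 0.49 for HK1, 0.42 and 0.40 for PFKM and 0.17 and 0.21 for PFKP, by construction, since the median of all genes moved up. For TPI1, IP over input in shNC and shMETTL14 was -0.12 and -0.11 with library size only, -0.015 and -0.024 with a minimum of 10 counts per library and -0.022 and -0.018 with pseudogenes added, and over the fits without 1 sample it ran from -0.0042 to 0.026 in shMETTL14. The input differences that turned sign were 0.019 for SLC16A1 and 0.026 for MYCN with factors from the least captured genes and 0.0056 for MYCN without a filter. Over the fits without 1 sample, input values ran from -0.024 to 0.035 for GPI, -0.047 to 0.028 for MYCN and -0.0025 to 0.33 for EPAS1.

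The change of IP over input turned sign for TPI1 with library size only (0.0039) and pseudogenes added (0.0045), and for GPI (-0.00043) and PGAM1 (-0.0015) with factors from the least captured genes. Over the fits without 1 sample it ran from -0.10 to 0.022 for HK2, -0.031 to 0.0086 for TPI1, -0.036 to 0.15 for GPI, -0.0060 to 0.13 for ALDOA and -0.011 to 0.11 for PGAM1. The IP libraries alone gave 5 enzymes higher, 24 other genes higher and 11 lower, with 0.17 for HK2, 0.15 for TPI1, -0.0054 for PGAM1 and -0.063 for ENO1. The summed CPM of the enzymes with library size only was 5514 in shNC input, 5672 in shMETTL14 input, 2976 in shNC IP and 3183 in shMETTL14 IP, and with pseudogenes added 5401, 5503, 3181 and 3353. The cause of the other differences between settings was not tested. The replicate block gave 4 enzymes higher and 1 lower in input and 9 lower in IP over input in each arm, unchanged, and called MYC in input (0.74, adjusted p = 0.0452). A replicate number shared by inputs of both arms marks no known pairing (correlation of deviations -0.015). Among single genes, 71 values under alternatives lost their call without turning sign, 16 of them without a filter and 22 without shMETTL14 replicate 2. DESeq2 gave no adjusted p for CA9, which is left out of that count. Few counts limit CA9 and PGAM2, which had as few as 8 and 94 in an input library.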
